A study of Solanum lycopersicum x Solanum pennellii and Solanum lycopersicum and Solanum pennellii with 305 samples.

Results

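Root tip transcript levels were compared between the parents of a tomato introgression population, the wild relative Solanum pennellii LA0716 and the cultivated tomato S. lycopersicum cv. M82. The libraries were taken by their labels, 3 of S. pennellii (replicates 1, 3 and 4) and 4 of M82 (replicates 1 to 4), and they stand for 2 of the 77 genotypes in the series. The other libraries come from 75 introgression lines (ILs), each of which carries a segment of S. pennellii chromosome in an otherwise M82 genome. For each library, between 7 and 14 tips of 1 cm were pooled, which were cut 3 to 4 days after germination. Each genotype grew on its own vertical agar plates in a shared growth chamber, with no further treatment. The harvest day was chosen for each plate. S. pennellii is represented by 1 accession and M82 by 1 cultivar. The labels of the S. pennellii libraries give that species as the organism, although a further label names the cultivar M82, and the title and organism were followed here.

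S. pennellii is a green-fruited wild tomato of dry habitats that is known for its tolerance of drought and salt, and M82 is a field tomato bred for processing. The root tip holds the root cap, the meristem in which cells divide and the zone in which they elongate, and it senses gravity and takes up water and nutrients. A difference in a whole root tip can come from the amount of RNA in each cell or from the proportions of the cell types, and these cannot be told apart here. The deposited tables carry gene identifiers with no names or descriptions, so the gene families and functions behind most differences are not described here, and the tissue could not be checked against markers of its cell types. The identifier gives the chromosome of a gene and its place in the gene order.

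Between 3078847 and 5659441 reads were counted on genes in the 7 libraries, and between 20464 and 21532 genes had at least 1 read. Pearson's r of log2 expression was 0.978 to 0.982 between the M82 libraries, 0.980 to 0.984 between the S. pennellii libraries and 0.827 to 0.850 between the genotypes, and every library was closer to its own genotype than to the other. S. pennellii replicate 4 was the nearest of its group to M82, with r of 0.843 to 0.850. Reads of S. pennellii were mapped to S. pennellii coding sequence and reads of M82 to M82 coding sequence. A difference in how well the 2 references take up reads of the same gene therefore cannot be told apart from a difference in expression.

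To ask how far the root tip transcriptomes of the parents differ, 19591 genes were tested with edgeR's quasi-likelihood test, and genes were called where the p adjusted by the Benjamini-Hochberg method was 0.01 or less. S. pennellii differed from M82 in 6984 genes, which is 35.6% of those tested. Of these, 3485 were higher in S. pennellii (17.8% of the genes tested) and 3499 were lower (17.9%). The median log2 fold change over all genes tested was -0.05, which the TMM scaling holds near 0. The split of directions moved with the scaling and the filter, and 55.6% of the called genes were higher in S. pennellii with DESeq2's size factors and 57.1% with no filter on low counts, the most uneven split among the alternatives.

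Many of the differences were large. The median absolute log2 fold change of the called genes was 1.24. At least a 2-fold difference was found in 2303 genes that were higher and 1922 that were lower in S. pennellii, together 21.6% of the genes tested. At least a 16-fold difference was found in 484 higher and 459 lower genes, and at least a 64-fold difference in 255 and 153. The libraries of the 2 genotypes did not overlap for 6755 of the called genes (96.7%), against 48.9% of all genes tested.

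**Figure D1:**
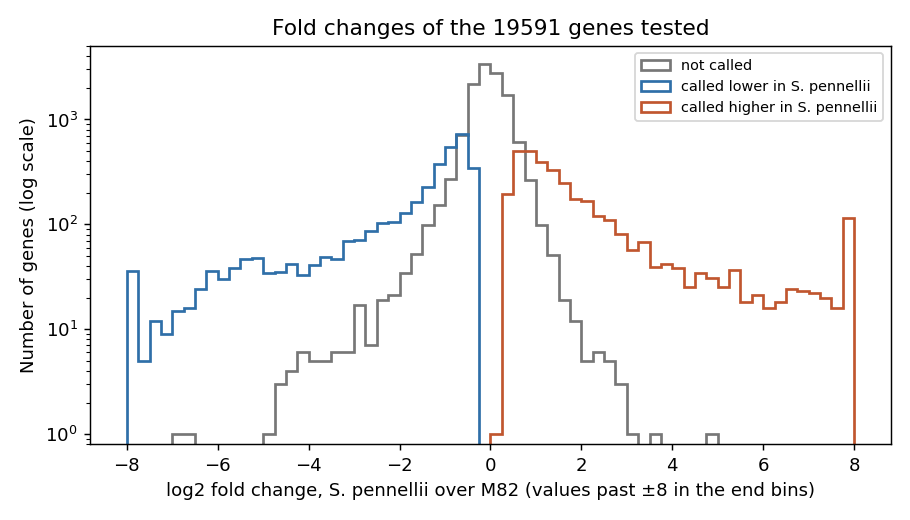
Distribution of the log2 fold change of S. pennellii over M82 (horizontal axis) over the 19591 genes tested, as the number of genes in bins of equal width (vertical axis, log scale), with separate lines for genes not called, called lower and called higher. Both called groups reach from small changes to the end bins, which hold all values past 8 in either direction.

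Levels within a 2-fold range of each other were common. An approximate 95% interval of the log2 fold change (1.96 standard errors either way) lay within a 2-fold difference for 10631 genes, 54.3% of those tested, and 1358 of these were called in spite of their small change. For 3324 genes (17.0%) the interval lay within 0.5 on the log2 scale.

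The size of the difference varied with the level of the gene more than the share of genes called did. Levels are given as CPM, the reads of a gene relative to all reads of its library, after edgeR's TMM scaling. Among 914 genes with a mean under 1 CPM over the parents, 30.3% were called, 55 higher and 222 lower in S. pennellii, with a median absolute log2 fold change of 4.51 among those called. Among 3597 genes of 1 to 5 CPM, 39.2% were called, with a median of 2.49. Among 5717 genes of 5 to 20 CPM, 38.3% were called, with a median of 1.27. Among 7232 genes of 20 to 100 CPM, 33.6% were called, with a median of 0.80, and among 2078 genes of 100 to 1000 CPM, 31.5% were called, with a median of 0.77. Small changes can be called only in genes with enough reads, so the medians of the called genes are not a measure of divergence at each level. Over all genes tested, called or not, the median absolute log2 fold change also fell, from 1.60 under 1 CPM and 0.90 at 1 to 5 CPM to 0.28 at 100 to 1000 CPM, and counting error is larger at the lower levels. The filter on low counts used the libraries of all genotypes, most of which carry the M82 copy of any given gene. It can thus retain more low genes read from the M82 copy, so the split of 55 higher and 222 lower cannot show a direction. With no filter on low counts, 4192 genes of any level were called higher and 3149 lower in S. pennellii. That split was not broken down by level.

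Of the 53 genes with a mean of 1000 CPM or more, 23 were called (43.4%, against 35.6% of all genes tested). Of these, 5 were higher and 18 lower in S. pennellii. Of the 100 genes with the highest mean CPM in each parent, 69 were shared. The largest absolute log2 fold change among the shared genes was 1.25, and a place in both lists itself limits how far a gene can differ. Of the 131 genes in either list, 12 were called at least 2-fold higher and 16 at least 2-fold lower in S. pennellii. Over all genes tested, 21.6% were called at least 2-fold in either direction, so these counts do not set the most abundant transcripts apart. The 100 genes with the most reads took 13.9% to 15.3% of the reads in the M82 libraries and 12.6% to 13.5% in those of S. pennellii, and the ranges did not overlap.

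The called genes together made up a large part of the transcripts, and the share of each direction shifted between the parents. Genes called higher in S. pennellii took 20.5%, 20.7% and 19.0% of the reads in S. pennellii replicates 1, 3 and 4, and 8.93%, 8.56%, 8.39% and 8.55% in M82 replicates 1 to 4. Genes called lower took 13.4%, 13.6% and 14.0% in S. pennellii and 25.1%, 25.5%, 24.6% and 25.3% in M82. The direction of these shifts follows from how the genes were chosen, and the values describe how much of the RNA the calls cover. In M82 the genes that were higher there held 25.1% ± 0.371 of the reads (SD, n = 4), and in S. pennellii the genes that were higher there held 20.1% ± 0.957 (SD, n = 3).

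**Figure D2:**
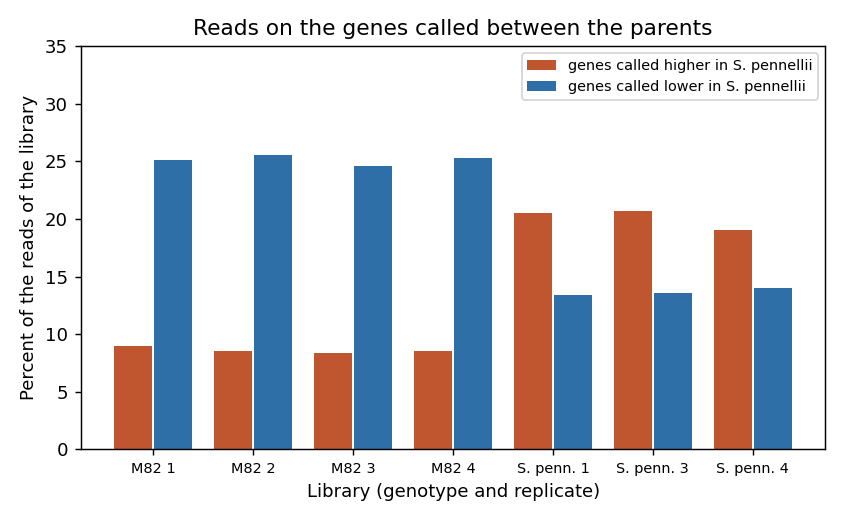
Percent of the reads of each parental library (vertical axis) that fell on genes called higher and on genes called lower in S. pennellii (bars), for the 4 M82 and 3 S. pennellii libraries (horizontal axis). The genes called lower hold 24.6% to 25.5% of the reads in M82 and 13.4% to 14.0% in S. pennellii.

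At the far end of the distribution were genes read in 1 parent alone. With no read in any of the 4 M82 libraries and a mean of at least 5 CPM in S. pennellii there were 87 genes. The converse, no read in any of the 3 S. pennellii libraries and at least 5 CPM in M82, held for 32 genes. At 50 CPM or more there were 8 genes of the first kind and 6 of the second. A group with no read allows a level of up to 0.181 CPM in M82 and 0.195 CPM in S. pennellii (3 reads over the libraries of the group, counting error only). Genes of the first kind were most numerous on chromosome 6, with 13, and chromosome 3, with 12. Genes of the second kind were most numerous on chromosome 6, with 8, and chromosome 11, with 6. These counts are not scaled to the number of genes on a chromosome. The test held 1732 genes of chromosome 6, 2056 of chromosome 3 and 1366 of chromosome 11. Chromosome 8, with 1400 genes tested, had 8 genes of the first kind, so the count of chromosome 3 does not set it apart.

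The 2 genes with the largest log2 fold change in each direction show the range of this pattern. No source used here gives a name or function for them. Solyc04g039670, on chromosome 4, had 186, 166 and 177 CPM in S. pennellii replicates 1, 3 and 4 and no read in any M82 library. Its mean of 176 ± 9.62 CPM (SD, n = 3) was at least 975-fold higher than in M82 (adjusted p = 1e-60, edgeR's quasi-likelihood test). Solyc01g081600, on chromosome 1, had 147, 227 and 117 CPM in S. pennellii and no read in M82. Its mean was 164 ± 56.9 CPM (SD, n = 3), at least 905-fold higher (adjusted p = 1.6e-38, same test). Replicates differed more for this gene than for the first, and in both every S. pennellii library lay far above the floor of M82.

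In the other direction, Solyc03g119360, on chromosome 3, had 888, 798, 821 and 767 CPM in M82 replicates 1 to 4 and no read in S. pennellii. Its M82 mean of 819 ± 51.6 CPM (SD, n = 4) was at least 4200-fold higher than the level S. pennellii could hold (adjusted p = 4.4e-104, edgeR's quasi-likelihood test). This was the highest level of any gene read in only 1 parent. Solyc06g024210, on chromosome 6, had 66.9, 75.3, 37.2 and 237 CPM in M82 and no read in S. pennellii. Its M82 mean of 104 ± 89.9 CPM (SD, n = 4) was at least 533-fold higher (adjusted p = 1.1e-05, same test), and M82 replicate 4 lay well above the rest. Among the genes read in M82 alone, 4 had a highest M82 library more than 4 times the lowest, and in all 4 the highest was replicate 4. Without replicate 4, Solyc06g024210 was still called lower in S. pennellii, but its mean over the other 3 M82 libraries was 59.8 CPM, at least 307-fold higher, and it ranked 4 and not 2 by fold change. Its rank of 2 thus rests on that library.

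The ILs carry S. pennellii segments one at a time and show whether such a pattern comes with the chromosome of the gene. Solyc04g039670 had a mean of 178 CPM in IL4-2, 161 in IL4-3 and 163 in IL4-3-2, close to S. pennellii, and 0 in IL4-1 and 0.121 in IL4-4. Over the 70 lines with a segment on another chromosome its highest mean was 1.35 CPM. Solyc03g119360 fell to 0.486 CPM in IL3-5 and stood at 831 to 939 CPM in the other 3 lines of chromosome 3. Over 71 lines on other chromosomes it ranged from 693 to 997 CPM. In these genes the level of S. pennellii was found in lines with part of the same chromosome and in no line with part of another.

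The other genes of the set of 4 did not show this. Solyc01g081600 stayed at 0 to 0.0486 CPM in the 6 lines of chromosome 1 analysed here and reached at most 3.00 CPM in 69 lines on other chromosomes, so no line approached the level of S. pennellii. Whether any of these lines carries the S. pennellii copy of the gene was not determined. Counts of a further line of chromosome 1 matched no sample label and were not used. Solyc06g024210 had means of 26.9, 216, 93.9 and 81.2 CPM in IL6-1, IL6-2, IL6-3 and IL6-4 and from 38.9 to 836 CPM over 71 lines on other chromosomes, and no line was at the level of S. pennellii. Its range over the lines was wider than that over the M82 libraries.

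Over all genes read in S. pennellii alone, the lines of the same chromosome split in a similar way. Of the 84 with a known chromosome, 50 reached at least 25% of the S. pennellii level in a line with a segment on that chromosome, and 22 stayed under 1 CPM in every such line. In lines with a segment elsewhere, 12 of the 84 reached 25% of the S. pennellii level in at least 1 line, and the median over those lines was at most 0.506 CPM for any of the 84. Of the 31 genes with a known chromosome that were read in M82 alone, 24 fell to 25% of the M82 level or less in a line of the same chromosome, and 3 did so in a line of another. There are far more lines on other chromosomes than on the chromosome of a gene (69 and 6 for chromosome 1). In the ILs, too, reads inside the segment were mapped to S. pennellii sequence, so these lines share the reference with the parent.

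**Figure D3:**
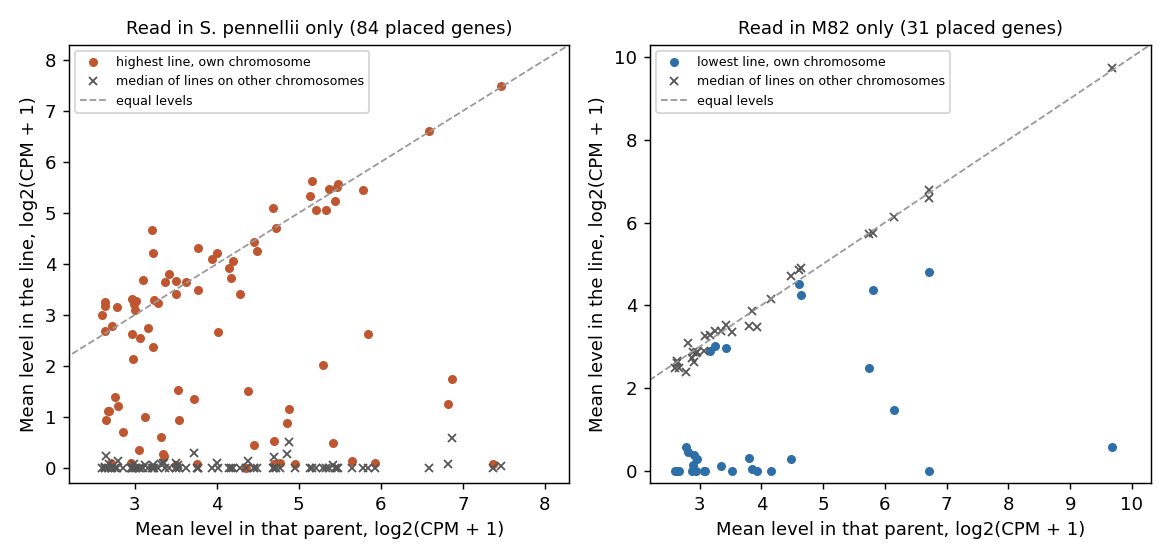
Mean level in introgression lines (vertical axis) against the mean level in the parent that has reads (horizontal axis), both as log2(CPM + 1), for 84 genes read in S. pennellii alone (left) and 31 read in M82 alone (right). Filled points give the highest (left) or lowest (right) line of the gene's own chromosome and crosses the median of lines on other chromosomes; 50 and 24 genes reach or fall to 25% of the parental level.

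The same question was asked of all genes called between the parents. Each IL was compared with the lines whose segment lies on another chromosome, for the genes of its own chromosome, by edgeR's quasi-likelihood test with adjustment over those genes. No library of M82 or S. pennellii enters this contrast, although all genotypes share the estimate of the spread. Reads inside a segment were mapped to S. pennellii sequence, as for the parent, so a difference between the references can recur in the lines. This was not separated here. The mean of many lines is known more closely than that of the 4 M82 libraries, so smaller differences can be called. At an adjusted p of at most 0.01, 49.4% of the 19440 placed genes were called in at least 1 line of their own chromosome. Of the 3466 placed genes called higher in S. pennellii, 2341 (67.5%) were also called higher in such a line and 265 (7.65%) were called lower in one. Of the 3463 called lower in S. pennellii, 2271 (65.6%) were called lower and 389 higher. Of the 12511 genes not called between the parents, 27.7% were called in a line in the direction of their parental fold change and 11.9% in the opposite one. The genes shared in direction, 4612 in all, were 66.6% of the placed genes called between the parents and 48.1% of those called in a line.

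The share found in the lines rose with the size of the parental difference, and the share in the opposite direction did not. Of the 521 called genes with an absolute log2 fold change under 0.5, 53.9% were called in the same direction in a line of their own chromosome. It was 59.9% of 2233 genes from 0.5 to 1, 66.7% of 2013 from 1 to 2, 73.8% of 1241 from 2 to 4 and 79.8% of 921 beyond 4. The opposite direction was found in 8.60% to 10.5% of the genes in these classes. Larger differences are easier to call at a fixed threshold. The rise is thus not a measure of how often a difference comes with the chromosome. By chromosome, the share in the same direction was lowest on chromosome 5 (41.4%, 5 lines) and chromosome 1 (44.2%, 6 lines) and highest on chromosome 2 (78.8%, 8 lines). How much of each chromosome the lines cover was not measured, and a further line of chromosome 1 was not used.

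**Figure D4:**
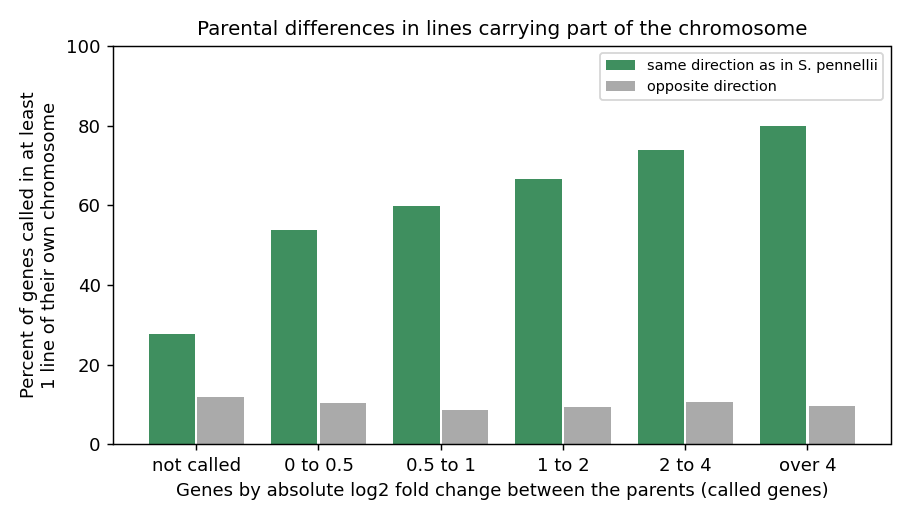
Percent of genes (vertical axis) called in at least 1 line of their own chromosome in the same or the opposite direction as in S. pennellii (bars), by the absolute log2 fold change between the parents (horizontal axis), beside genes not called between the parents. The same direction rises from 53.9% to 79.8%, against 27.7% of genes not called.

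Differences were spread over the genome. The share of genes called ran from 33.2% on chromosome 10 to 38.2% on chromosome 6. On chromosome 6, 354 genes were higher and 307 lower in S. pennellii, and on chromosome 12 203 were higher and 250 lower. Of the 151 tested gene models with no chromosome, 36.4% were called, 19 higher and 36 lower.

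Along the chromosomes, neighbouring genes were called in the same direction more often than in opposite directions, with no test of this difference. A gene called higher had an adjacent tested gene also called higher in 38.5% of cases and one called lower in 30.3%. For genes called lower, the neighbour was called lower in 38.4% and higher in 30.2%. Over all placed genes the corresponding shares were 32.1% with a neighbour called higher and 32.2% with one called lower. Adjacent genes are often copies of one another, between which short reads may be divided, and this was not separated here.

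Most calls had no adjacent tested gene called in the same direction, and 2133 stretches in each direction held 1 gene. A neighbour called in the opposite direction also ended a stretch. The longest stretch held 7 consecutive tested genes, all lower in S. pennellii, on chromosome 1 at places 226 to 232 of the 3692 gene models in the table. Its 7 genes together had 7.78, 7.49 and 2.98 CPM in S. pennellii replicates 1, 3 and 4 and 54.7, 56.8, 42.4 and 54.0 CPM in M82 replicates 1 to 4. All M82 libraries lay above all S. pennellii libraries, as they did for each gene alone. This follows from the choice of genes called lower. In the lines of chromosome 1 the sum was 19.4 CPM in IL1-1-3 and 14.9 CPM in IL1-1-4, against 56.2 in IL1-1-2, 39.4 in IL1-3, 42.7 in IL1-4 and 46.7 in IL1-4-18. Over the lines on other chromosomes it ran from 33.7 to 106 CPM with a median of 48.6, so only IL1-1-3 and IL1-1-4 lay below that range. Stretches of 6 genes were found 4 times in each direction.

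For 4 genes the study itself gives a name or role, and 3 of them were to be reported whatever their test gave. SlPAP27 (Solyc07g008570, chromosome 7) encodes a purple acid phosphatase, a class of metal-containing enzymes that release phosphate from organic esters. It had 62.7, 84.1 and 67.0 CPM in S. pennellii replicates 1, 3 and 4 and 21.4, 16.9, 21.6 and 19.8 CPM in M82. Every S. pennellii library was above every M82 library, with a log2 fold change of 1.85 (95% interval 1.47 to 2.22). Lines on other chromosomes had 11.9 to 29.9 CPM, which includes the range of M82.

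Its neighbouring paralog Solyc07g008550 moved the other way. It had 13.4, 12.8 and 14.1 CPM in S. pennellii and 33.0, 33.6, 32.0 and 34.7 CPM in M82, and its log2 fold change of -1.31 had a standard error of 0.18 (adjusted p = 1.4e-10, edgeR's quasi-likelihood test). Among the 10 lines of chromosome 7 its means were 24.8 to 36.7 CPM, and it was called in none of them against the lines on other chromosomes (smallest adjusted p = 0.014, same test). In IL7-4 and IL7-4-1, where SlPAP27 stood at 62.2 and 70.3 CPM, the paralog had 26.5 and 24.8 CPM. The level of SlPAP27 in these lines was thus near that of S. pennellii, and that of the paralog was nearer to M82. Reads of the pair may be divided between the copies, so both values are uncertain to that extent. The paper also describes apparent tandem duplications at this locus in S. pennellii. By its alignment, part of the paralog maps well to the S. pennellii gene that it pairs with SlPAP27. Whether each gene has a single counterpart in the other species is thus uncertain, and so is the reading of the opposite changes. The paralog was added to the named genes after its values were seen.

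The remaining genes did not pass the test between the parents. CDC73 (Solyc06g054080), named for a subunit of the Paf1 complex that acts with RNA polymerase during transcription, had 22.4, 28.6 and 25.5 CPM in S. pennellii and 18.6, 20.3, 23.3 and 23.3 CPM in M82. The groups overlapped, and the 95% interval of the log2 fold change was -0.10 to 0.61. Solyc01g014230, a gene for a U-box domain protein (a class that includes ubiquitin ligases) that served as the reference gene of the study's quantitative PCR, had 32.5, 33.7 and 34.2 CPM in S. pennellii and 31.7, 34.6, 32.9 and 25.2 CPM in M82. The fitted log2 fold change of 0.11 (adjusted p = 0.57, edgeR's quasi-likelihood test) had a 95% interval of -0.17 to 0.39. The 75 line means lay between 22.2 and 36.9 CPM. The highest was that of IL1-1-4, a line of its own chromosome, in which the gene was called higher than in the lines on other chromosomes (log2 fold change 0.32, adjusted p = 0.0042, same test), and it was not called in the other 5 lines of chromosome 1.

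**Figure D5:**
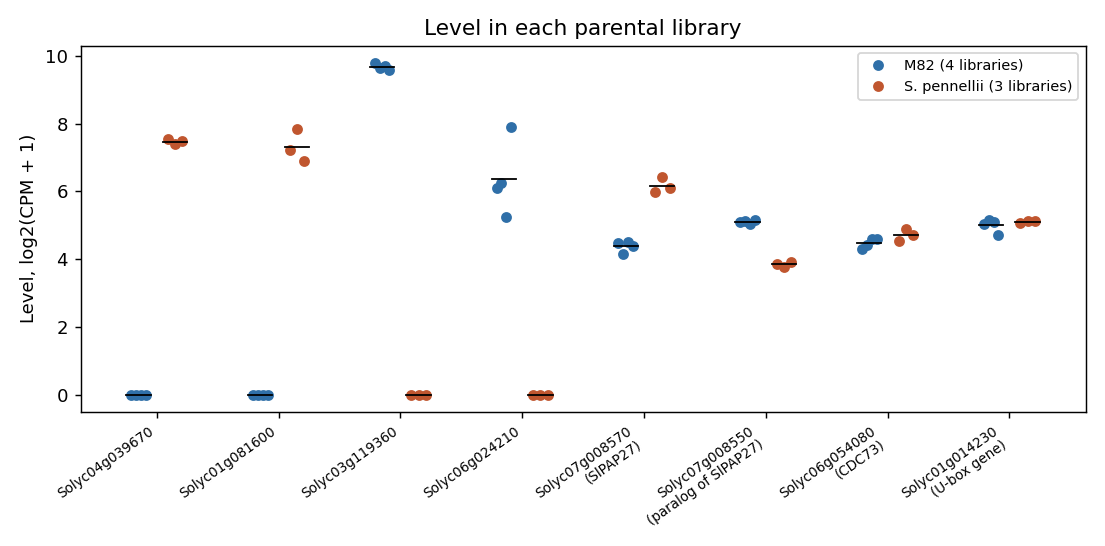
Level of the 8 named genes in each parental library (points) as log2(CPM + 1) on the vertical axis, with the mean of each group as a bar. The 4 genes at left are at 0 in all libraries of 1 parent, SlPAP27 and its paralog differ in opposite directions, and the groups overlap for CDC73 and the U-box gene.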

How the data were processed

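Root tips were profiled by single-end RNA-seq of 50 bp reads. The authors used BWA to map them to coding sequences of M82, of S. pennellii or, for each IL, of a chimera, and samtools for counting, with versions not given in the sources used here. Values were taken from these deposited read counts per gene, not normalized. Deposited CPM rounded to whole numbers, and a table with the authors' fold changes and p-values, were not used. The count table has 29633 genes, of which 1442 had no read. A further 9 per-sample columns matched no sample label and were not used, and they include a line of chromosome 1.

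Counts of all 305 libraries were scaled by TMM, filtered with filterByExpr and fitted with edgeR 4.0.16 (glmQLFit, glmQLFTest, R 4.3.3) on genotype, with S. pennellii minus M82 as the contrast and Benjamini-Hochberg adjustment over all 19591 genes tested (threshold 0.01). The scripts were tested on simulated data. Alternatives used DESeq2 1.42.0, other filters, references and thresholds, a replicate block, and each parental library left out. By the labels a replicate number marks a shared plating date, and libraries of a number were sequenced as a pool, so the numbers pair the samples. Deviations from the group means correlated by 0.262, 0.034 and 0.033 between libraries numbered 1, 3 and 4. Replicates are pools of seedlings from separate platings.

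Named genes were to be the called genes of largest fold change with a mean of at least 5 CPM, non-overlapping libraries and a name in a reference table. With no such table, the 2 of largest change in each direction are given, with the genes the study names. The planned lists of root tip functions and cell types could not be applied. The members and lists were chosen with earlier results of these data known. Folds against a group with no reads are lower bounds, against 3 reads over the group. Floors cover counting error only, and intervals are taken from the fitted standard error.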

Additional observations from a re-analysis of the deposited data

How the results depend on the processing

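The number of genes called between the parents was 6984, and it lay between 5238 (only genes with a mean of at least 5 CPM, 15067 tested) and 8970 (ILs on other chromosomes as the reference) over the alternative fits. Leaving out 1 parental library gave 5876 to 6605 genes. The replicate block, with 7356 genes, moved no count by over 1.5 times and changed the call of none of the 8 named genes. Requiring also a log2 fold change of at least 1 in either direction gave 4225 genes, 2303 higher and 1922 lower, because fewer genes meet both conditions. No gene called in the main comparison was called with the opposite sign in any of the 15 alternative fits, and the share called again with the same sign was 72.6% to 99.5%, lowest where fewer genes were tested. All 8 named genes kept their sign and their side of the threshold in these fits.

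Other alternatives were chosen after seeing the data. Genes read in S. pennellii alone numbered 284 at a minimum of 1 CPM and 30 at 20 CPM, and genes read in M82 alone 162 and 9, since the minimum sets how many qualify. Leaving out 1 library gave 83 to 112 and 31 to 48. The number of genes called in the same direction in a line of their own chromosome was 3426 to 5582. It was 4068 to 4405 without 1 parental library. The alternatives for lists of genes by function were not run, since the lists could not be applied. At these depths, genes of a few CPM rest on few reads per library.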
